A study of Bos taurus with 16 samples.

Results

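The genes described here encode parts of axonemal dynein and of the complex that anchors it: ARMC4 (now ODAD2), TTC25 (ODAD4), CCDC114 (ODAD1), WDR63 (DNAI3), TCTE3 (DYNLT2) and TCTEX1D2 (DYNLT2B). They are 6 of the 36824 gene entries counted in bovine (Bos taurus) follicular cells, of which 2473 carry a name. They were picked by symbol, as rows for dynein arms, arm docking and dynein light chains, after their levels in these libraries had been seen. The difference between cell types, the side difference of TTC25 in granulosa cells, that of TCTEX1D2 in cumulus cells and the level of WDR63 in contralateral granulosa library 3 entered into that choice, so these are given as descriptions. Nothing is read from whether they passed a threshold.

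RNA was sequenced from cumulus cells, which surround the oocyte, and granulosa cells, which line the follicle. Follicles came from the ovary with the corpus luteum, the gland that forms after ovulation (ipsilateral), or from the opposite ovary (contralateral). The 4 groups were therefore ipsilateral and contralateral cumulus cells and ipsilateral and contralateral granulosa cells, each with 4 pools of cells from 3 animals. The labels give no breed, age or added treatment, nor whether an animal gave cells to pools of more than 1 group. The p-values therefore measure the spread between pools.

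Motile cilia and sperm tails beat because dynein arms on the outer microtubule doublets slide one doublet along the next. Outer arms sit on a docking complex to which ARMC4, TTC25 and CCDC114 belong, and loss of any of these proteins in people causes primary ciliary dyskinesia. WDR63 is an intermediate chain of an inner arm. TCTE3 and TCTEX1D2 are light chains of the Tctex family, and TCTEX1D2 is also a subunit of cytoplasmic dynein-2, the motor that carries cargo back from the tip of a cilium. Follicular cells are known for a primary cilium, which does not beat and lacks dynein arms.

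The libraries held 10.1 to 21.9 M counts each (M, mega). Levels are given in CPM, counts per 1 M after library scaling. At these depths 3 counts, the upper limit that a count of 0 allows, were worth 0.137 to 0.298 per 1 M before that scaling. After scaling, 3 counts in contralateral granulosa library 1 were worth 0.317 CPM. Such limits cover counting error only. CPM is not divided by transcript length, so levels were compared between libraries and not between genes. None of the 11 granulosa and none of the 9 cumulus cell markers looked for was found by name in the table, so the labelled cell types could not be checked against them. In contralateral granulosa library 3 the oocyte transcripts found by name, 4 of 18, summed to 18.4 CPM, against 4.20 to 7.94 CPM in the other 3 libraries of its group and 3.37 to 8.85 CPM in the ipsilateral granulosa libraries. Each result that rests on this library is given with and without it. Of these sums the transcript CAGE1 alone gave 6.64 CPM in this library and 4.08 to 7.94 CPM in the rest of its group. In cumulus cells the same sum was 219 CPM in contralateral library 4 and 33.3 CPM in contralateral library 2, against 13.01 and 13.9 CPM in the other 2 of that group and 12.8 to 15.7 CPM in the ipsilateral libraries.

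Between the cell types the 6 genes went different ways. ARMC4 was 4.95-fold higher in cumulus cells and TCTE3 12.7-fold higher in granulosa cells, while TCTEX1D2 was at nearly the same level in both. TTC25, CCDC114 and WDR63 were low in most libraries and were highest in contralateral granulosa library 3. By edgeR's quasi-likelihood test across all entries, 3 of the 6 passed an adjusted p of 0.05 (ARMC4 upward in cumulus cells, TCTE3 and CCDC114 upward in granulosa cells), beside 60.2% of the 18038 entries tested (29.9% toward cumulus and 30.3% toward granulosa cells). Without contralateral granulosa library 3, ARMC4 and TCTE3 passed and CCDC114 did not, beside 59.4% of entries. The 8 cumulus libraries were all above the 8 granulosa libraries for ARMC4, as for 13.5% of entries, and all below them for TCTE3, as for 14.5% (28% in both directions). In the order of the 4 group means, neighbouring groups overlapped for every gene except where cumulus met granulosa cells in ARMC4 and TCTE3. Because this contrast helped to choose the genes, nothing is read from these counts. In bulk RNA, fewer cells of a type and less RNA per cell cannot be told apart.

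**Figure D1:**
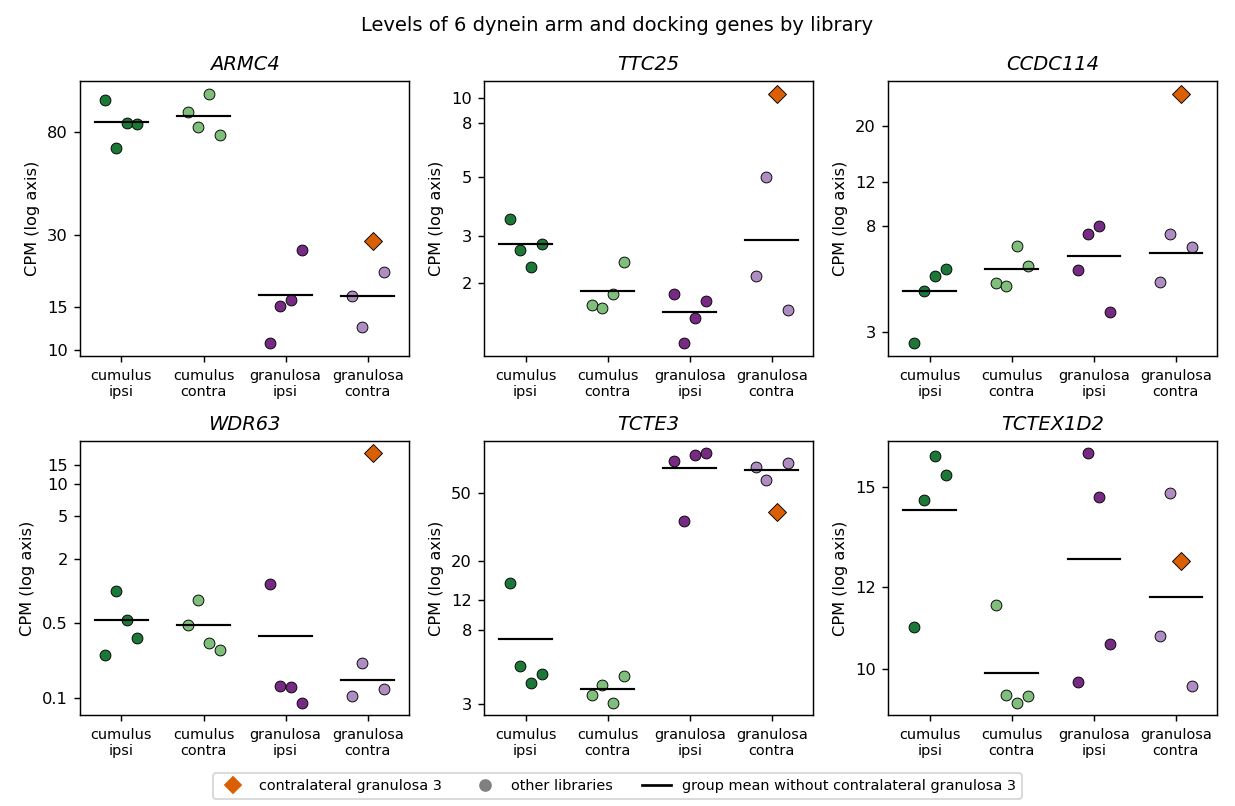
Level of each of the 6 genes in every library, in CPM on a log axis, by group (cumulus or granulosa cells, ipsilateral or contralateral). Points are libraries, the diamond is contralateral granulosa library 3, and lines are group means without that library. The cell types are apart for ARMC4 and TCTE3, and WDR63 stands at 19.6 CPM in contralateral granulosa library 3 against 1.17 CPM at most elsewhere.

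Of the docking genes, ARMC4 encodes the armadillo-repeat subunit that holds outer arms at regular positions. Its levels in ipsilateral cumulus libraries 1 to 4 were 108, 68.7, 87.4 and 86.6 CPM, and in contralateral cumulus libraries 96.5, 83.5, 116 and 78.0 CPM. Ipsilateral granulosa libraries 1 to 4 held 10.6, 15.1, 16.2 and 25.9 CPM, and contralateral ones 16.7, 12.4, 28.4 and 20.95 CPM. Every cumulus library lay above every granulosa library, with no overlap, while the sides overlapped within each cell type. Cumulus cells averaged 90.6 ± 15.5 CPM and granulosa cells 18.3 ± 6.29 CPM (SD, n = 8 each). The difference was 2.31 ± 0.19 on the log2 scale (SE), and 2.42 ± 0.19 without contralateral granulosa library 3.

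TTC25 encodes the docking subunit with tetratricopeptide repeats. Ipsilateral cumulus libraries 1 to 4 held 3.47, 2.66, 2.29 and 2.80 CPM, and contralateral cumulus libraries 1.65, 1.61, 1.82 and 2.38 CPM. Ipsilateral granulosa libraries held 1.81, 1.18, 1.48 and 1.71 CPM, and contralateral ones 2.11, 5.03, 10.4 and 1.58 CPM. Contralateral granulosa libraries 2 and 3 were the highest of all, and the other 2 of that group lay below the highest cumulus library. The cell types differed by -0.25 ± 0.33 (log2, cumulus minus granulosa), and by 0.10 ± 0.27 without library 3. Among ipsilateral libraries alone TTC25 was 0.85 ± 0.34 higher in cumulus cells, and among contralateral libraries alone the difference was -1.36 ± 0.57.

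CCDC114 encodes the coiled-coil subunit of the docking complex. Its levels were 2.71, 4.40, 5.05 and 5.36 CPM in ipsilateral and 4.73, 4.58, 6.61 and 5.51 CPM in contralateral cumulus libraries 1 to 4. In granulosa cells they were 5.31, 7.40, 7.95 and 3.60 CPM in ipsilateral and 4.75, 7.41, 27.1 and 6.58 CPM in contralateral libraries. The groups overlapped throughout, and only contralateral granulosa library 3 lay far from the rest. The difference between cell types was -0.78 ± 0.32 (log2) with all libraries and -0.35 ± 0.22 without that library, where CCDC114 no longer passed. Its call also ended without any 1 of 9 other libraries: ipsilateral cumulus 1, 2 or 3, contralateral cumulus 1, 2 or 4, or ipsilateral granulosa 1, 2 or 3, at differences between -0.82 and -0.69. The Ensembl entry that followed CCDC114 (r = 0.995 over 16 libraries, 88.5% of its counts) differed by -0.76 and did not pass.

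WDR63, the inner arm intermediate chain, was near the limit of detection in nearly every library. Ipsilateral cumulus libraries 1 to 4 held 3, 11, 8 and 6 counts (0.254, 1.01, 0.538 and 0.365 CPM), and contralateral cumulus libraries 9, 17, 5 and 5 counts (0.478, 0.828, 0.324 and 0.284 CPM). Ipsilateral granulosa libraries held 18, 2, 2 and 2 counts (1.17, 0.131, 0.128 and 0.0900 CPM). Contralateral granulosa libraries held 1, 4, 395 and 2 counts, the third of these at 19.6 CPM and the others at 0.106, 0.212 and 0.122 CPM. Contralateral granulosa library 3 thus held 92.7% of the WDR63 counts in granulosa cells and 80.6% of those in all 16 libraries. The difference between cell types was -1.42 ± 0.97 (log2) with this library and 1.07 ± 0.64 without it, a change of direction.

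Of the light chain genes, TCTE3 showed the opposite order to ARMC4. Ipsilateral granulosa libraries 1 to 4 held 76.1, 34.2, 82.9 and 84.5 CPM, and contralateral ones 70.1, 59.1, 38.7 and 73.8 CPM. Ipsilateral cumulus libraries held 14.96, 4.95, 3.97 and 4.51 CPM, and contralateral ones 3.40, 3.85, 3.05 and 4.37 CPM. No cumulus library reached the lowest granulosa library, although ipsilateral cumulus library 1 was about 3 times as high as the others of its group. Granulosa cells averaged 64.9 ± 19.3 CPM and cumulus cells 5.38 ± 3.92 CPM (SD, n = 8 each). The difference was -3.67 ± 0.29 on the log2 scale (SE).

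TCTEX1D2 stood between 9.27 and 16.2 CPM in all 16 libraries. Ipsilateral cumulus libraries 1 to 4 held 10.99, 14.6, 16.1 and 15.4 CPM, and contralateral ones 11.5, 9.45, 9.27 and 9.42 CPM. Ipsilateral granulosa libraries held 9.72, 16.2, 14.7 and 10.6 CPM, and contralateral ones 10.8, 14.8, 12.7 and 9.62 CPM. All 4 groups overlapped their neighbours in the order of means, and the cell types differed by -0.06 ± 0.14 (log2).

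**Figure D2:**
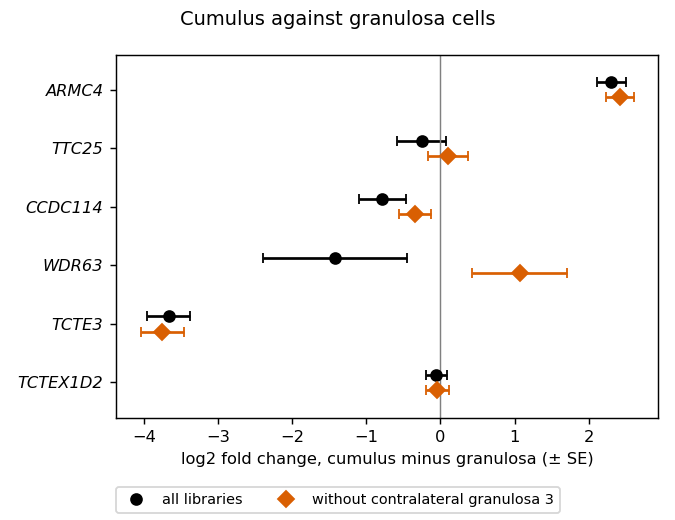
Log2 difference between cumulus and granulosa cells for each of the 6 genes, with its standard error, from all 16 libraries (circles) and from 15 without contralateral granulosa library 3 (diamonds). ARMC4 at 2.31 and TCTE3 at -3.67 lie farthest from 0, and WDR63 moves from -1.42 to 1.07 when the library is left out.

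The reads carry no strand, which bears on how the counts of these genes are assigned. In the RefSeq annotation of ARS-UCD2.0, used for names and neighbours only, TCTE3 overlaps ERMARD, TCTEX1D2 overlaps TM4SF19, and ARMC4 overlaps LOC112449278, a long non-coding RNA. LOC112449278 held 13.3% as many counts as ARMC4 and followed it across libraries (r = 0.994, n = 16). WDR63 overlaps a transfer RNA gene and a pseudogene, and TTC25 and CCDC114 overlap no other gene. An entry outside that annotation, LOC104969678, followed TCTE3 with 95.4% of its counts (r = 0.997, n = 16). Each of the 6 was also followed by an Ensembl entry, with 88.5% to 101% of its counts, but that entry was a near repeat in every library (within 2% or 2 counts) for TCTE3 and TCTEX1D2 alone. Whether the same reads were counted under both names, and how reads divide between overlapping genes, was not tested.

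The study's main comparison asked whether cells of follicles near the corpus luteum differ from those of the opposite ovary. By edgeR's quasi-likelihood test no entry passed an adjusted p of 0.05 in cumulus cells (0% of 16323). Of these, 1791, or 11%, had an unadjusted edgeR p under 0.05. DESeq2, which tested a larger set of 27631 entries, called 120, or 0.434%. Of the genes described here, ARMC4, TTC25, CCDC114 and TCTE3 were tested on a difference that had not entered into the choice, and none passed. WDR63 was left out by the filter on low counts. TCTE3 was 0.94 ± 0.41 higher on the ipsilateral side (log2, SE; edgeR adjusted p = 0.447), and 0.28 without ipsilateral cumulus library 1. TTC25 differed by 0.58 ± 0.30 (edgeR adjusted p = 0.489), CCDC114 by -0.29 ± 0.26 (0.703) and ARMC4 by -0.09 ± 0.15 (0.848). For TCTEX1D2 the difference was 0.52 ± 0.18, with ipsilateral libraries 2, 3 and 4 above every contralateral library and ipsilateral library 1 within their range.

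TTC25 levels in cumulus cells also leaned to the ipsilateral side, at 2.80 ± 0.492 against 1.86 ± 0.359 CPM (SD, n = 4 each). Only the lowest ipsilateral library, at 2.29 CPM, fell below the highest contralateral one, at 2.38 CPM. TCTE3 averaged 7.10 ± 5.26 against 3.67 ± 0.572 CPM, and 4.48 ± 0.492 CPM (n = 3) on the ipsilateral side without library 1. In that library TCTE3, TTC25 and ARMC4 were the highest of their group, and CCDC114, WDR63 and TCTEX1D2 the lowest.

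In granulosa cells no entry passed between sides by edgeR (0% of 16411), and 579, or 3.53%, had an unadjusted p under 0.05. DESeq2 called 1 of 27033 entries, or 0.0037%. The edgeR adjusted p was 0.9996 for ARMC4, CCDC114, TCTE3 and TCTEX1D2. TTC25 was lower on the ipsilateral side by -1.64 ± 0.58 (log2, SE), and by -0.91 ± 0.50 without contralateral library 3. CCDC114 differed by -0.93 ± 0.55 with that library and -0.04 ± 0.35 without it. ARMC4 went from -0.22 ± 0.32 to 0.03 ± 0.32, and TCTE3 from 0.21 ± 0.29 to 0.04 ± 0.28. TCTEX1D2 moved little, from 0.09 ± 0.24 to 0.13 ± 0.27. The filter left out WDR63 here too. In a fit of all 16 libraries its granulosa difference was -3.73 ± 1.41, and without contralateral library 3 the 4 ipsilateral libraries held 24 WDR63 counts and the other 3 contralateral ones 7. Of the 24, ipsilateral library 1 held 18, which leaves 6 in the others.

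**Figure D3:**
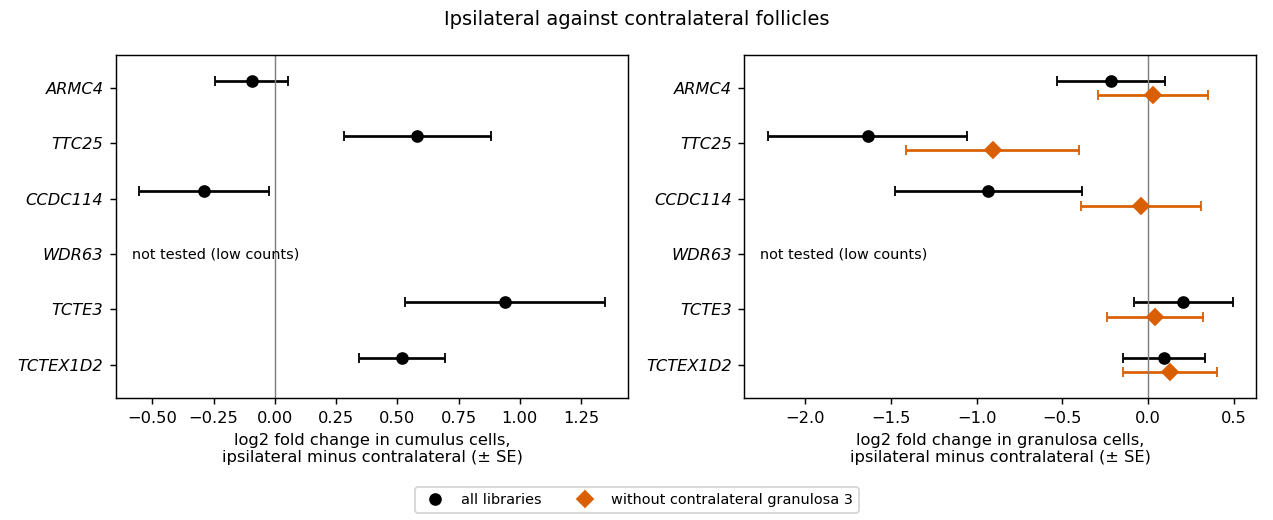
Log2 difference between ipsilateral and contralateral libraries in cumulus cells (left) and granulosa cells (right), with its standard error, from all libraries (circles) and, in granulosa cells, without contralateral library 3 (diamonds). The left and right axes differ in range. The granulosa difference of CCDC114 shrinks from -0.93 to -0.04 without the library.

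Whether the side difference itself differed between cell types was tested in all 16 libraries. DESeq2 called 1 of 29213 entries, or 0.00342%. By edgeR no entry passed (0% of 18038), and 1358, or 7.53%, had an unadjusted p under 0.05. TTC25 gave 2.22 ± 0.67 (log2, cumulus side difference minus granulosa side difference), and 1.50 ± 0.55 without contralateral granulosa library 3. For WDR63 the value was 3.88 ± 1.94, and -1.11 ± 1.27 without that library, a change of sign. CCDC114 gave 0.64 ± 0.64 (edgeR adjusted p = 0.859), changing to -0.24 ± 0.43, and ARMC4 0.12 ± 0.37 (0.970), changing to -0.12 ± 0.35. TCTE3 gave 0.74 ± 0.54 (0.777), which was 0.09 without ipsilateral cumulus library 1, and TCTEX1D2 0.43 ± 0.29. All 6 values were above 0 with every library in the fit, and 3 of 6 without contralateral granulosa library 3. Over all entries the median was -0.02 with every library and -0.03 without that one. Nothing is read from these counts, because side differences and the WDR63 level helped to choose the genes.

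Contralateral granulosa library 3 was the highest of the 16 libraries for WDR63, CCDC114 and TTC25, and for ARMC4 it was the highest of the 8 granulosa libraries. Of all entries, 5.32% were highest in this library. WDR63 stood there at 16.8 times its highest level elsewhere, CCDC114 at 3.40 times and TTC25 at 2.06 times. Over all 18038 entries, 163 exceeded 2 times their highest level elsewhere in this library and 18 exceeded 10 times. The 18038 include the 6 genes and the Ensembl entries that followed them, so they are not all separate genes. Nothing is read from these counts, because the WDR63 level here and the TTC25 side difference in granulosa cells helped to choose the genes. The rest of the 6 genes did not share the pattern. ARMC4 was 1.098 times its next granulosa level and TCTEX1D2 was 0.787 times its highest granulosa level. TCTE3, at 38.7 CPM, was lower there than in every granulosa library but 1.

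Other genes of the axoneme and of dynein were looked up from lists of 168 symbols, of which 22 were found by name. Of these, 14 were highest in contralateral granulosa library 3 among 16 libraries. Some led by little, as CCDC151 was 1.02, DYNC2H1 1.05, CFAP46 1.07 and WDR78 1.16 times its highest level elsewhere. The share of 5.32% given above covers entries that passed the filter on low counts, which EFCAB1, TCTE1 and TCTEX1D1 did not. EFCAB1, a calcium-binding protein of the docking complex, stood at 12.6 CPM there and at 0.983 CPM or less elsewhere. CFAP44, part of the tether that links an inner arm to its doublet, stood at 32.1 CPM, which was 6.89 times its highest level elsewhere. TCTE1, of the nexin-dynein regulatory complex, was at 7.78 CPM, or 15.3 times its highest level elsewhere. The highest levels of EFCAB1 and TCTE1 elsewhere rested on 15 and 6 counts. As neither passed the filter on low counts, their ratios have no counterpart among the 18038 entries. Genes that did not peak there included HYDIN, a central pair protein, at 8.47 CPM beside 54.1 to 90.7 CPM in cumulus libraries, and WDR60, a dynein-2 intermediate chain, at 4.56 CPM.

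**Figure D4:**
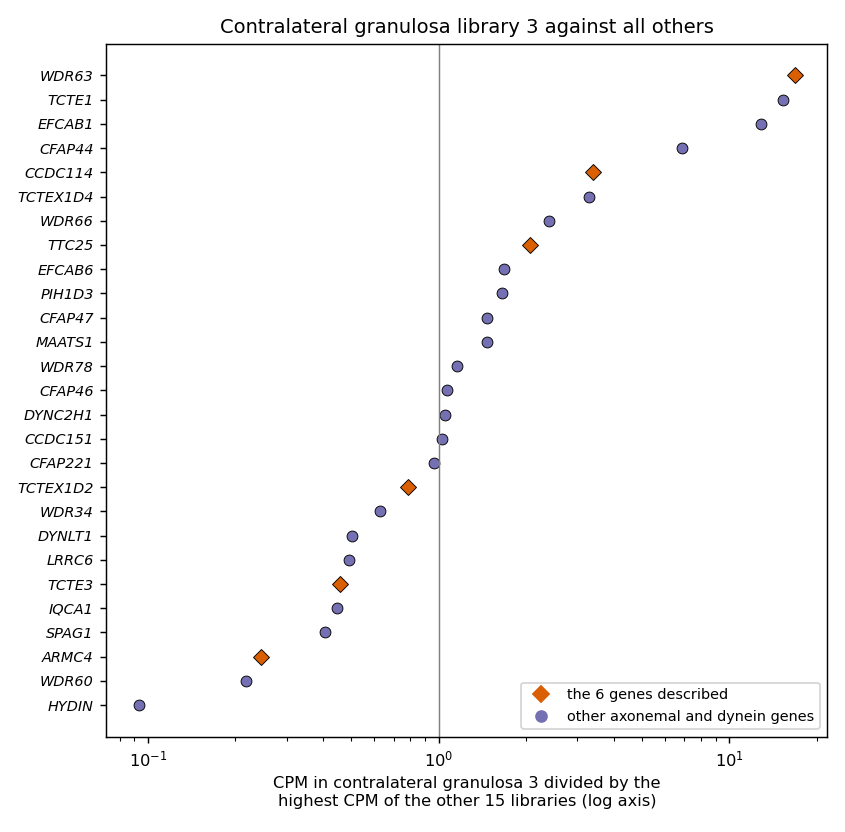
CPM in contralateral granulosa library 3 divided by the highest CPM among the other 15 libraries, on a log axis, for the 6 genes (diamonds) and 21 of 22 other axonemal and dynein genes (circles). TCTEX1D1 is not drawn because it had at most 1 count in any other library. WDR63, at 16.8, and TCTE1, at 15.3, lie farthest right, and HYDIN farthest left. The highest level of TCTE1 elsewhere rested on 6 counts.

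The epithelial marker and 3 of the 4 oocyte markers found by name were higher in contralateral granulosa library 3 than in the rest of its group. None of 15 ciliated epithelium markers, 12 stroma and endothelium markers or 7 theca and luteal markers was found by name. The epithelial marker found, 1 of 14, was MUC16, a surface mucin, at 24.7 CPM in contralateral granulosa library 3 and 0 to 0.739 CPM in the other 3 of its group. Ipsilateral granulosa library 3 held more MUC16, at 44.3 CPM, with WDR63 at 0.128 CPM, and ipsilateral granulosa library 1 held 9.98 CPM with WDR63 at 1.17 CPM. H1FOO, an oocyte linker histone, was at 5.25 CPM in contralateral granulosa library 3 and at 0 in the others of its group. BCL2L10 was at 5.55 CPM against 0 to 0.211 CPM and TDRD12 at 0.991 CPM against 0 to 0.317 CPM, while CAGE1, at 6.64 CPM, lay within its group (4.08 to 7.94 CPM). Among cumulus libraries, contralateral library 4 held 92.6 CPM of H1FOO with WDR63 at 0.284 CPM, and contralateral library 2 held 8.96 CPM with WDR63 at 0.828 CPM. PF4, the 1 leukocyte marker found of 12, was at 3.67 CPM against 0.975 to 3.91 CPM in the rest of the group. The part of epithelial or oocyte RNA in these levels was not tested.

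Between cell types, 9 of the 19 other axonemal and dynein genes tested were higher in cumulus cells and 3 were higher in granulosa cells (edgeR adjusted p under 0.05), 12 of 19 in all. Over all entries the shares were 29.9%, 30.3% and 60.2%, so the total was near the background. Without contralateral granulosa library 3 the counts were 11 and 2, beside 5512 and 5439 of the 18434 entries tested (59.4% in both directions). Their median difference was 0.41 on the log2 scale (0.76 without the library), beside 0.03 (0.04) over all entries. In the same measure the median of the 6 genes was -0.52 (0.03).

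The heavy and intermediate chains of dynein-2 found by name were higher in cumulus cells. DYNC2H1, the heavy chain, differed by 0.41 ± 0.15, and the intermediate chains WDR34 and WDR60 by 0.36 ± 0.08 and 1.91 ± 0.28 (log2, SE). DYNLT1, a light chain of cytoplasmic dynein, differed by 0.76 ± 0.11. For TCTEX1D2, which belongs to dynein-2 as well, the value given above was -0.06 ± 0.14. Of the factors that assemble dynein arms in the cytoplasm, LRRC6 at 1.50 ± 0.24 and SPAG1 at 1.13 ± 0.33 passed toward cumulus cells, and PIH1D3 at -1.05 ± 0.58 did not pass.

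The other genes that passed toward cumulus cells were IQCA1, HYDIN and MAATS1, which encode axonemal proteins. Toward granulosa cells WDR78, the intermediate chain that pairs with WDR63 in an inner arm, passed at -0.61 ± 0.09, and CFAP221, a central pair protein, at -2.53 ± 0.27. TCTEX1D4, a Tctex-family light chain, passed at -2.08 ± 0.66, and not without contralateral granulosa library 3, at -1.30 ± 0.57. CCDC151, the docking subunit that partners CCDC114, differed by -0.10 ± 0.13. Between sides none of these genes passed in either cell type. Their median side difference in granulosa cells was -0.44, with 1 of 18 above 0, and -0.01 with 8 of 18 above 0 without contralateral library 3. Over all entries tested the median was 0.006 with that library and 0.011 without it.

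Of the regulators of ciliated cell programmes, 1 of 18 was found by name. This was E2F5, a transcription factor of multiciliated cells, which differed between cell types by -0.28 ± 0.21 and did not pass.

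The named entries whose pattern was most like each gene were ranked by Pearson's r of log2(CPM + 0.5) over the 16 libraries, among 811 entries. These points share the difference between cell types and, for 3 genes, the high values of 1 library, and the values are given as a description. For ARMC4 they were HYDIN (0.98), EMB (0.96) and TMEM246 (0.96), and within a cell type the r of HYDIN was 0.31 over the 8 cumulus and 0.88 over the 8 granulosa libraries. For TCTE3 they were MARCH3 (0.98), SEPT9 (0.97) and LYG1 (0.97). For TCTEX1D2 they were FAM96A (0.81), MINOS1 (0.78) and ATP5MPL (0.77), and here r was 0.766 to 0.859 within the cumulus libraries and 0.777 to 0.901 within the granulosa libraries.

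Without contralateral granulosa library 3 these 3 genes kept all 3 of their nearest entries. CCDC114 and WDR63 kept none and TTC25 kept 1. With all libraries the nearest to CCDC114 were C11H9orf116 (0.79), TCTEX1D4 (0.73) and WDR63 (0.73), and to WDR63 C11H9orf116 (0.83), C3H1orf189 (0.77) and CFAP44 (0.76). TTC25 was nearest to C3H1orf189 (0.78), COL19A1 (0.73) and WDR63 (0.72). Over 15 libraries the nearest were IMPAD1, IER5 and C23H6orf222 for CCDC114, ZNF883, DDIAS and GCNA for WDR63, and KIAA1211L, COL19A1 and ELMSAN1 for TTC25. The r of WDR63 with CCDC114 in granulosa cells went from 0.86 over 8 libraries to -0.07 over 7.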

How the data were processed

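For 16 libraries of polyadenylated RNA the authors deposited 1 table of raw read counts, whose columns were matched to the samples by title. Per the labels' protocols, cDNA was made with SMART-Seq HT and libraries with Nextera XT, which mark no strand, and reads were single-end, 75 bp long. FastQC, Trimmomatic, STAR and DESeq2 are named without versions in the submitters' processing notes. The sources used here give no genome build, annotation or counter. Replicates differed beyond sampling noise (chi-square per gene 12.9 to 78.7).

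Differences were tested in R 4.3.3 with edgeR 4.0.16 (limma 3.58.1): filterByExpr (minimum count 10, minimum total 15), TMM scaling, robust dispersions and the quasi-likelihood F-test, with Benjamini-Hochberg adjustment over all entries tested and calls at an adjusted p under 0.05. The SE is the size of the log2 difference divided by the square root of F. All 6 genes passed the filter over 16 libraries and 5 in each side fit. Side comparisons used 8 libraries, the others 16 with 4 group means. The edgeR fits were run on simulated counts drawn with the estimated spread, with changes planted in well-counted entries. That run does not bear on high values of a single library or on genes as low as WDR63. Alternatives were DESeq2 1.42.0, its size factors in edgeR, no filter, all libraries in the side fits, sides apart, and each library left out. A further alternative was chosen after seeing the data: leaving out contralateral cumulus library 4 with contralateral granulosa library 3, which had the most oocyte transcripts of each cell type.

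The 6 genes and the lists were chosen with earlier results of these data known. By rule, the 6 genes, the dynein chain, docking, assembly and cytoplasmic dynein genes found by name and the 3 entries most like each gene are named. CFAP44, CFAP46, TCTE1, IQCA1, MAATS1, CFAP221, MUC16, H1FOO, BCL2L10, TDRD12, CAGE1, PF4 and E2F5 were singled out after their values were seen.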

Additional observations from a re-analysis of the deposited data

Results flagged for a closer look

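In each group of 4 libraries the gap from the highest or lowest level to its nearest neighbour was divided by the range of the group. This was done for 24 groups (6 genes in 4 groups). A library lay farther out than Dixon's 95% limit in 6 of these. For normally spread values in independent groups, chance alone flags about 1 in 20 groups. The CPM levels were not put on a log scale and the same libraries recur for each gene, so that rate may not hold here. The share flagged is not read as a result, since the level of WDR63 in contralateral granulosa library 3 helped to choose the genes. WDR63 stood at 19.6 CPM in contralateral granulosa library 3, with the other 3 between 0.106 and 0.212 CPM, and at 1.17 CPM in ipsilateral granulosa library 1, with the others between 0.0900 and 0.131 CPM. CCDC114 stood at 27.1 CPM in contralateral granulosa library 3, with the others between 4.75 and 7.41 CPM. TCTE3 was high in ipsilateral cumulus library 1, at 14.96 CPM beside 3.97 to 4.95 CPM, and low in ipsilateral granulosa library 2, at 34.2 CPM beside 76.1 to 84.5 CPM. TCTEX1D2 was high in contralateral cumulus library 1, at 11.5 CPM beside 9.27 to 9.45 CPM. The 10.4 CPM of TTC25 in contralateral granulosa library 3 did not pass this limit, since library 2 of the group was also raised, at 5.03 CPM.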

How the results depend on the processing

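No paired analysis was possible because the labels give the groups no shared replicate numbers. Numbers of entries called between sides were 0 with edgeR under every alternative, and with DESeq2 120 in cumulus cells, 1 in granulosa cells and 1 for the difference of the side effects. With DESeq2 none of the genes with an adjusted p passed between sides. WDR63 had no DESeq2 p-value, adjusted or unadjusted, in granulosa cells, for the difference of side effects or between cell types. In cumulus cells its DESeq2 adjusted p was 0.982. Entries called between cell types numbered 10582 to 11055 with 1 library left out. ARMC4 and TCTE3 kept their direction between cell types under every alternative run, from which nothing is read because this difference helped to choose them.

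Directions that turned were those of small or single-library differences (log2 values; the cause was not tested). With ipsilateral libraries alone the cell type difference was 0.85 for TTC25 and 0.15 for TCTEX1D2. With contralateral cumulus library 4 and granulosa library 3 both left out it was 0.031 for TTC25 and 1.16 for WDR63, and the difference of side effects was -0.20 for ARMC4, -0.22 for CCDC114 and -1.29 for WDR63. With 1 library left out, cell type differences ranged from -0.39 to 0.10 for TTC25, -1.65 to 1.07 for WDR63 and -0.12 to 0.012 for TCTEX1D2. The difference of side effects ranged from -0.12 to 0.40 for ARMC4, -0.24 to 0.89 for CCDC114 and -1.11 to 5.51 for WDR63. The side difference of ARMC4 ranged from -0.21 to 0.026 in cumulus and -0.49 to 0.028 in granulosa cells, and that of TCTEX1D2 in granulosa cells from -0.038 to 0.21. WDR63, with 18 counts or fewer outside contralateral granulosa library 3, is limited by depth.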
